A study of Mus musculus with 6 samples.

Results

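The Tribbles genes Trib1, Trib2 and Trib3 encode the 3 mammalian Tribbles pseudokinases, and they were followed here in mouse CD4+ T cells cultured to become regulatory T cells (Tregs). The members are the rows of the count files whose Ensembl identifiers map to these symbols in GRCm38. All 3 members were found among the 39179 genes listed, and all 3 were among the 14928 genes that passed the filter on low counts. They were selected on the measured CPM of DEL-1-Fc against Fc libraries, because they moved in opposite directions, so their differences between the groups are given as a description, with no test. Naive CD4+ splenocytes of wild-type C57BL/6 mice aged 6 weeks had been cultured for 3 days on coated anti-CD3 at 2 µg/ml (the first letter of this unit is garbled in the labels) plus 1 µg/ml anti-CD28, 5 ng/ml TGF-β1 and 40 ng/ml IL-2. The DEL-1-Fc group (3 libraries) also received DEL-1, a secreted integrin-binding protein, as a fusion with antibody Fc, and the control group (3 libraries) received Fc alone. All 6 libraries were polyA-selected RNA. Whether the replicates were separate mice or cultures is not in the labels, so p-values speak only to variation among the libraries sequenced, perhaps technical.

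Tribbles proteins have a kinase-like fold but little or no catalytic activity, and they work as scaffolds. Their C-terminal tail recruits the ubiquitin ligase COP1, and the pseudokinase domain holds the protein that is to be degraded, of which the transcription factor C/EBPα is the best known for TRIB1 and TRIB2. Tribbles proteins also bind the kinases MEK1 and AKT. TRIB1 has been described as a binding partner of FOXP3 in Tregs, TRIB2 is known as an oncogene of acute leukaemia and a repressor of FOXO factors, and TRIB3 is a stress-induced target of the transcription factors ATF4 and CHOP.

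In GRCm38, Trib1 (ENSMUSG00000032501) is on the plus strand, chromosome 15, 59648350 to 59657099, and overlaps no other annotated gene. Trib2 (ENSMUSG00000020601) is on the minus strand, chromosome 12, 15791727 to 15816922, and contains the microRNA gene Mir6387 on the same strand. Trib3 (ENSMUSG00000032715) is on the minus strand, chromosome 2, 152337422 to 152344032, and overlaps no other annotated gene. The main coding transcripts had 3 exons in Trib1, 3 in Trib2 and 4 in Trib3. Their coding sequences were 1116, 1029 and 1062 bases without the stop codon, and their 3′ UTRs were 2401, 1884 and 788 bases, respectively. The coding sequences of Trib1 and Trib2 were identical at 66.8% of aligned bases, those of Trib1 and Trib3 at 60.6% and those of Trib2 and Trib3 at 59.5%. The longest runs of bases that 2 members shared in their coding sequences are printed here because they bear on whether a read could be counted for the wrong member.
Trib1 and Trib2: gtgcctcatccgaagc
Trib2 and Trib3: gacctcaagctgcg
Trib1 and Trib3: gccaagtgtcc
These runs of 16, 14 and 11 bases are short. No 31-base word of any annotated Trib1, Trib2 or Trib3 transcript occurred in a transcript of another gene, the other Tribbles genes included.

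The bases before the Trib3 start are shown because they hold a match to the C/EBP-ATF response element, the kind of site through which ATF4 and CHOP act on stress genes. The stretch is chr2:152344061-152344310 of GRCm38.p6 (RefSeq), read on the minus strand 5′ to 3′ up to the last base before the RefSeq start, with the match in capitals.
Trib3: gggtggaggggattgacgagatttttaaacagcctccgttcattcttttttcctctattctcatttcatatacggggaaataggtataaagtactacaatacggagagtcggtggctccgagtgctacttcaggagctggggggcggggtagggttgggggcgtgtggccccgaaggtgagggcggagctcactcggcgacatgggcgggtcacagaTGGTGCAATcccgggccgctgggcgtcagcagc
The patterns searched were TGATGNAA and TGNTGCAAT, on both strands; the 2 patterns can match the same site. The capitals match TGNTGCAAT and begin 33 bases before the RefSeq start. Over all 32851 RefSeq windows of the same length (from 250 bases before to 50 bases after a start), 0.673% held TGNTGCAAT and 3.97% held TGATGNAA. The Trib3 window also held TGATGNAA on the opposite strand, just past the RefSeq start. The RefSeq window of Trib2 held neither pattern. No RefSeq window was available for Trib1, so its promoter was not searched. The other 3 patterns, TGACGTCA (the cyclic AMP response element), TGANTCA (AP-1) and GTAAACA (FOXO), were not found in the Trib2 or Trib3 window. A match describes letters only and does not show that a factor binds there.

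The libraries held 33364166 to 61967687 counts, and DEL-1-Fc replicate 1 was the shallowest. That library also stood apart from the other 2 of its group on both leading principal components of log CPM. On the first, which carried 44% of the variance, it scored 47.7 against 14.27 and 12.79 for the other DEL-1-Fc libraries and -27.49 to -22.69 for Fc. On the second, with 23.3%, it scored 27.9 against -28.72 and -23.65, with Fc at 4.38 to 11.49. Defining markers of the labelled cell type were present: Cd4 measured 612 to 681 CPM and Foxp3 316 to 584 CPM over the 6 libraries, where CPM is the count relative to the library size after TMM scaling. The 5 Treg markers summed to 3560 to 3950 CPM in Fc and 3600 to 4110 CPM in DEL-1-Fc. Their members differed in direction: Foxp3 was at 316 to 414 CPM in Fc and 465 to 584 CPM in DEL-1-Fc, Ctla4 at 516 to 540 and 391 to 461 CPM, and the groups overlapped for Il2ra, Ikzf2 and Tnfrsf18. The 8 T cell markers summed to 2000 to 2070 CPM in Fc and 2180 to 2430 CPM in DEL-1-Fc. Summed markers of other cells were 4.90 to 7.07 CPM for B cells (5 of 5 markers with counts), 0.164 to 0.658 CPM for myeloid cells (5 of 6, S100a8 at 0), and 0 to 0.0364 CPM for NK cells (2 of 3, Ncr1 at 0). The 2 CD8 markers summed to 10.1 to 10.4 CPM in Fc and 11.9 to 12.8 CPM in DEL-1-Fc, and their part in the Tribbles values was not tested. The 4 dendritic cell markers summed to 8.87 to 9.02 CPM in Fc and 6.46 to 7.04 CPM in DEL-1-Fc, nearly all of it Zbtb46, with Siglech at 0. The 4 fibroblast and endothelial markers summed to 58.1 to 68.6 CPM in Fc and 73.7 to 85.3 CPM in DEL-1-Fc, nearly all of it Pecam1, which T cells also express, with Col3a1 at 0. In bulk RNA, fewer cells that express a gene and less of its RNA per cell cannot be told apart.

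Trib2 was about 3-fold higher in the DEL-1-Fc libraries. Fc replicates 1, 2 and 3 held 705, 875 and 737 counts, and DEL-1-Fc replicates 1, 2 and 3 held 1328, 2616 and 2288. Scaled, the Fc libraries were at 12.42, 14.28 and 13.42 CPM and the DEL-1-Fc libraries at 40.47, 46.28 and 38.59 CPM. The lowest DEL-1-Fc library was thus far above the highest Fc library, and the shallow DEL-1-Fc replicate 1 lay between the other 2 of its group. The means were 13.4 ± 0.93 CPM in Fc and 41.8 ± 4.01 CPM in DEL-1-Fc (SD, n = 3 each), a 3.12-fold difference with a log2 fold change of 1.64 (SE 0.0914). Of the 14928 genes kept, 112 (0.75%) had a larger log2 fold change.

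Trib3 was lower in DEL-1-Fc, by an amount that differed between the libraries of that group. The Fc libraries held 574, 687 and 599 counts (10.11, 11.21 and 10.91 CPM), against 291, 335 and 351 (8.867, 5.926 and 5.92 CPM) under DEL-1-Fc. DEL-1-Fc replicates 2 and 3 were nearly equal, while replicate 1 lay closer to the lowest Fc library than to them, and the groups did not overlap. The means were 10.7 ± 0.567 CPM in Fc and 6.91 ± 1.7 CPM in DEL-1-Fc (SD, n = 3 each), 36.0% lower, with a log2 fold change of -0.64 (SE 0.16). Without DEL-1-Fc replicate 1 the log2 fold change was -0.86. The spread among the DEL-1-Fc libraries was 24.6% of the mean for Trib3, against 9.60% for Trib2 and 7.67% for Trib1. In Fc it was 5.28%, 6.95% and 5.81%, respectively.

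Trib1 was the most abundant member and differed least. The Fc libraries held 7227, 7947 and 6378 counts (127.3, 129.7 and 116.2 CPM), against 3799, 6424 and 5942 (115.8, 113.6 and 100.2 CPM) under DEL-1-Fc. The highest DEL-1-Fc library lay only just below the lowest Fc library. With counts divided by the library totals alone the groups overlapped, since Fc replicate 3 had 115.3 CPM and DEL-1-Fc replicate 2 had 116.3 CPM. The means were 124.4 ± 7.23 CPM and 109.9 ± 8.43 CPM (SD, n = 3 each), 11.7% lower in DEL-1-Fc, with a log2 fold change of -0.18 (SE 0.0753). A larger log2 fold change in the same direction was found for 21.9% of the genes kept, against 4.47% for Trib3.

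With TMM-scaled sizes the groups did not overlap for any of the 3 members, with DEL-1-Fc above for Trib2 and below for Trib1 and Trib3. Over all genes kept, the groups did not overlap for 34.8%, with DEL-1-Fc above for 17.3% and below for 17.5%. Nothing is read from the members' count, since this contrast chose them.

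**Figure D1:**
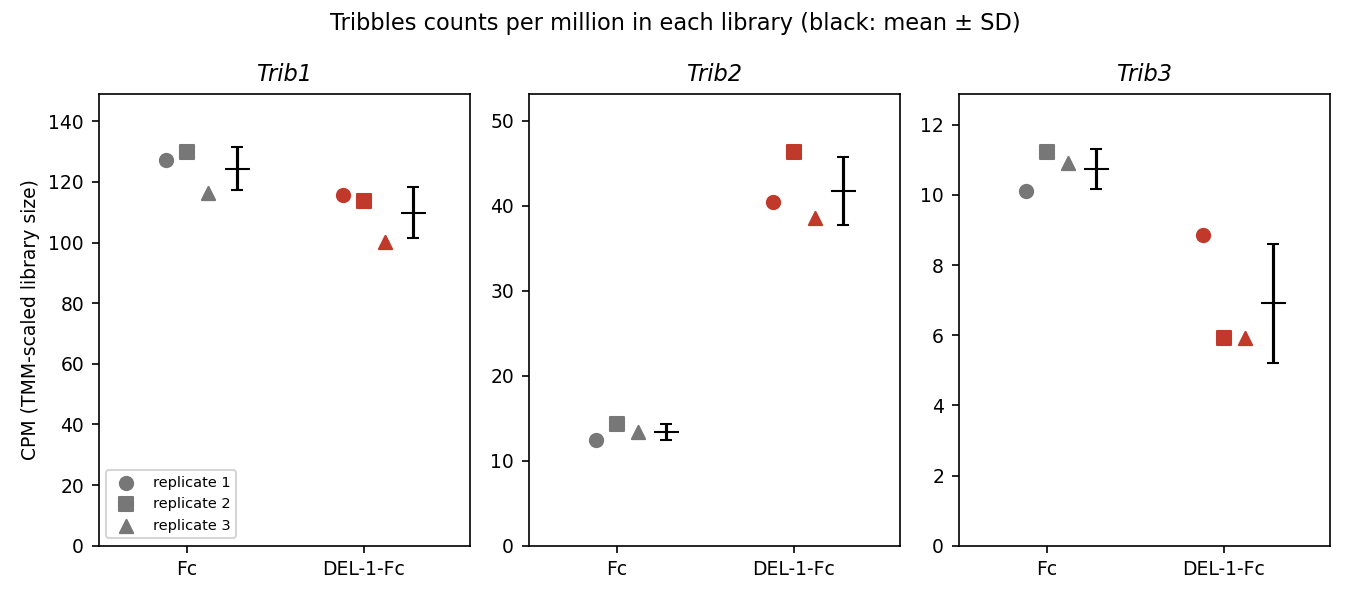
CPM (y axis, from 0, TMM-scaled library sizes) of Trib1, Trib2 and Trib3 in the 3 Fc (grey) and 3 DEL-1-Fc (red) libraries, with symbols for the replicate number and the mean ± SD in black. Trib2 lies between 12.42 and 14.28 CPM in Fc and between 38.59 and 46.28 CPM in DEL-1-Fc, while for Trib3 DEL-1-Fc replicate 1 (8.867 CPM) sits apart from replicates 2 and 3.

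Levels can be compared between genes only per length, so CPM was divided by the kilobases of merged exon sequence, 6248 bases for Trib1, 4335 for Trib2 and 2125 for Trib3. In Fc the order was Trib1 (19.9 ± 1.16 CPM per kb), Trib3 (5.06 ± 0.267) and Trib2 (3.09 ± 0.215; SD, n = 3). In DEL-1-Fc the order was Trib1 (17.6 ± 1.35 CPM per kb), Trib2 (9.64 ± 0.925) and Trib3 (3.25 ± 0.8; SD, n = 3). Within each group, neighbours in this order did not overlap in any library. Trib2 and Trib3 thus changed places: in level per length, Trib2 was 0.602 to 0.624 of Trib3 in the Fc libraries and 2.24 to 3.83 times Trib3 in the DEL-1-Fc libraries. This exchange rests on the values by which the members were chosen, so it is likewise a description. Among all genes kept, the mean level per length of Trib1 was at percentile 79.1 in Fc and 76.8 in DEL-1-Fc, that of Trib2 at 42.3 and 64.2, and that of Trib3 at 50.9 and 42.8.

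The summed level of the family differed less than its makeup. The members were chosen for moving in opposite directions, which favours such a pattern, so it is a description only. The sum was 28.1 ± 1.26 CPM per kb in Fc and 30.5 ± 2.38 in DEL-1-Fc (SD, n = 3), and the libraries of the groups overlapped, at 26.8 to 29.3 and 27.7 to 32.0 CPM per kb. Trib1 made up 69.3% to 72.8% of the sum in Fc and 57.5% to 57.8% in DEL-1-Fc. The share of Trib2 was 10.2% to 11.5% in Fc and 29.1% to 33.7% in DEL-1-Fc. Trib3 contributed 17.0% to 19.1% in Fc and 8.81% to 13.0% in DEL-1-Fc. With the longest transcript as the length, the level of Trib1 was 28.7 CPM per kb in Fc and 25.4 in DEL-1-Fc, and the order of the members was the same in both groups. Trib2 was then at 3.19 and 9.95 CPM per kb and Trib3 at 5.30 and 3.41, respectively. The shares above thus depend on the length used, and with the longest transcript that of Trib1 was larger.

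**Figure D2:**
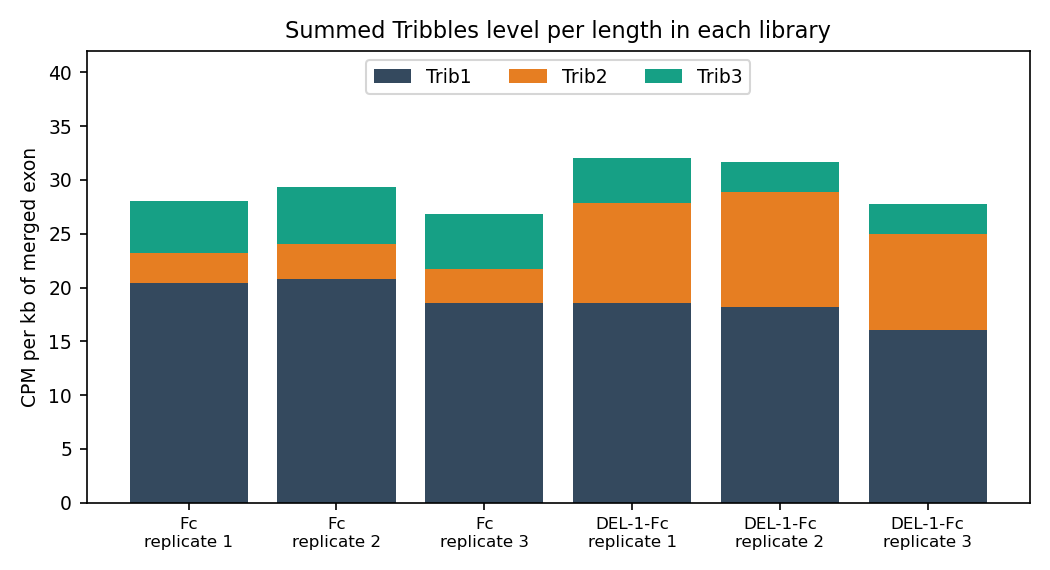
Stacked bars of the level per length (y axis, CPM per kb of merged exon, from 0) of Trib1, Trib2 and Trib3 in each of the 6 libraries. The bar heights of the groups overlap (26.8 to 29.3 in Fc and 27.7 to 32.0 in DEL-1-Fc), while the Trib2 part is larger in every DEL-1-Fc library.

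The other genes of Tribbles biology were read from 6 lists, tested in the fit over all genes. Across all 14928 genes, 12.6% were called at an edgeR adjusted p under 0.05, 6.4% higher and 6.22% lower in DEL-1-Fc, with a median log2 fold change of 0.01. Of the 22 tested genes of the COP1 ligase and its substrates, 0 rose, 5 fell and 17 did not pass, with a median log2 fold change of -0.09. At an unadjusted p under 0.05, 2 were higher and 7 lower, and DESeq2 called 0 higher and 6 lower. The ligase gene itself, Cop1, measured 44.54, 43.1 and 43.38 CPM under Fc against 49.61, 48.0 and 48.59 CPM under DEL-1-Fc and did not pass (log2 fold change 0.16, SE 0.0574, adjusted p = 0.114). Those that fell were Ets2, an ETS transcription factor (log2 fold change -0.39, SE 0.0613), Etv6, an ETS repressor (-0.47, SE 0.074), Mta1, a chromatin remodelling subunit (-0.38, SE 0.0921), Etv4, an ETS activator (-0.58, SE 0.148), and Jun, an AP-1 subunit (-0.25, SE 0.0605). Cebpa had 4, 3 and 4 counts under Fc against 0, 4 and 5 under DEL-1-Fc, at or near the limit of 3 counts that a count of 0 allows, and was not tested. Cebpb, which encodes C/EBPβ, had means of 11.6 ± 4.52 CPM under Fc against 12.1 ± 3.82 CPM under DEL-1-Fc (n = 3, SD). It did not pass (adjusted p = 0.93, log2 fold change 0.06, SE 0.341), with the opposite sign (-0.13, -0.05 and -0.22) on leaving out Fc replicate 1, Fc replicate 3 and DEL-1-Fc replicate 1 in turn. The number that fell was 2 on omission of any Fc replicate and 3 without DEL-1-Fc replicate 3, and 1 gene rose without DEL-1-Fc replicate 1. The calls of Jun (adjusted p = 0.0886, 0.142 and 0.0974), Mta1 (0.131, 0.111 and 0.0791) and Etv4 (0.161, 0.0912 and 0.0736) did not hold when Fc replicate 1, 2 or 3 was omitted, that of Jun also without DEL-1-Fc replicate 3 (0.0853), and that of Etv4 without DEL-1-Fc replicate 2 (0.082) or 3 (0.118).

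Of 20 tested genes for kinases and other proteins that Tribbles proteins bind, 1 rose, 1 fell and 18 did not pass, with a median log2 fold change of -0.02, which is close to the background. Foxp3, the Treg-defining factor that TRIB1 binds, rose from a mean of 359.5 ± 50.1 CPM to one of 523.3 ± 59.7 CPM (n = 3 each, SD), with edgeR adjusted p = 0.0166 and a log2 fold change of 0.54 (SE 0.116). Its gene overlaps Flicr on the same strand and other genes on the opposite strand, so some of its reads are uncertain. Map2k1, which encodes MEK1, measured 123.6, 134.3 and 135.3 CPM under Fc against 110.2, 98.75 and 109.1 CPM under DEL-1-Fc and fell (log2 fold change -0.31, SE 0.068, adjusted p = 0.0197). Akt1 measured 295.6 ± 4.01 and 292.9 ± 28.5 CPM (n = 3 each, SD) with edgeR adjusted p = 0.932 and a log2 fold change of -0.01, and its sign turned without DEL-1-Fc replicate 2 or 3 (0.02 and 0.03) and with library sizes alone (0.01). Foxp3 no longer passed without Fc replicate 1 (adjusted p = 0.0873), Fc replicate 3 (0.0753) or DEL-1-Fc replicate 1 (0.0928), nor did Map2k1 without Fc replicate 2 (0.0984) or 3 (0.0996). Without DEL-1-Fc replicate 1 the number that rose was 2, Map3k5 and Mapk9, both named after their values were seen.

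Genes of the ATF4 and CHOP pathway, of which Trib3 is a known target, were lower in DEL-1-Fc for the most part. Of 42 tested genes, 0 rose, 23 fell and 19 did not pass, with a median log2 fold change of -0.38, and 39 of the 42 had a log2 fold change below 0. The share called lower was 54.8%, against 6.22% over all genes. Unadjusted, 0 were higher and 27 lower at a p under 0.05, and DESeq2 called 0 higher and 26 lower. Atf4 itself, the factor that activates the pathway, fell from 518.4, 502.5 and 499.5 CPM under Fc to 367.4, 357.8 and 364.2 CPM under DEL-1-Fc (log2 fold change -0.48, SE 0.0591, adjusted p = 0.00109). Chac1, a glutathione-degrading enzyme, fell 4.66-fold (log2 fold change -2.22, SE 0.126), Atf3, a stress-induced repressor, 4.22-fold (-2.08, SE 0.125), Gpt2, a mitochondrial alanine transaminase, 3.07-fold (-1.62, SE 0.111), and Sesn2, a sestrin that restrains mTORC1, 2.44-fold (-1.29, SE 0.0793). Ddit3, which encodes CHOP, measured 13.0, 13.32 and 13.35 CPM under Fc against 12.95, 12.51 and 13.02 CPM under DEL-1-Fc and did not pass (log2 fold change -0.04, SE 0.0768, adjusted p = 0.756). Ddit3 overlaps a second annotated gene of the same name on its own strand, and Mars and Gm4189 on the other, so its reads are less certain. In this list 13 of the 42 tested genes had a lower log2 fold change than Trib3 and 29 a higher one.

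Relative to the Fc mean, Trib3 was at a log2 of -0.28 in DEL-1-Fc replicate 1 and at -0.86 in both replicates 2 and 3. Atf4 was at -0.46, -0.50 and -0.48 in the same libraries, Chac1 at -2.13, -2.31 and -2.21, and Atf3 at -2.23, -2.27 and -1.80, where replicate 3 was the highest. Of the 23 list genes that fell, DEL-1-Fc replicate 1 was the highest library of its group for 11, replicate 2 for 6 and replicate 3 for 6. Replicate 1 was highest for 26.5% of all genes called lower and for 40.8% of all genes tested. Of the 37 list genes with a RefSeq promoter window, 12 (32.4%) held TGATGNAA or TGNTGCAAT, against 5.02% of 27025 genes. Of those 12 genes, 7 were among those that fell, a share close to the 54.8% (23 of 42) of the whole list. Besides known targets, the list holds Atf4 and Ddit3 themselves and the upstream kinase genes Eif2ak1, Eif2ak2, Eif2ak3 and Eif2ak4. Of these, Atf4 and Eif2ak2 were among those that fell, and the Eif2ak genes were named after their values were seen. Since the list is made largely of known targets, its share of matches is not independent of how it was composed.

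**Figure D3:**
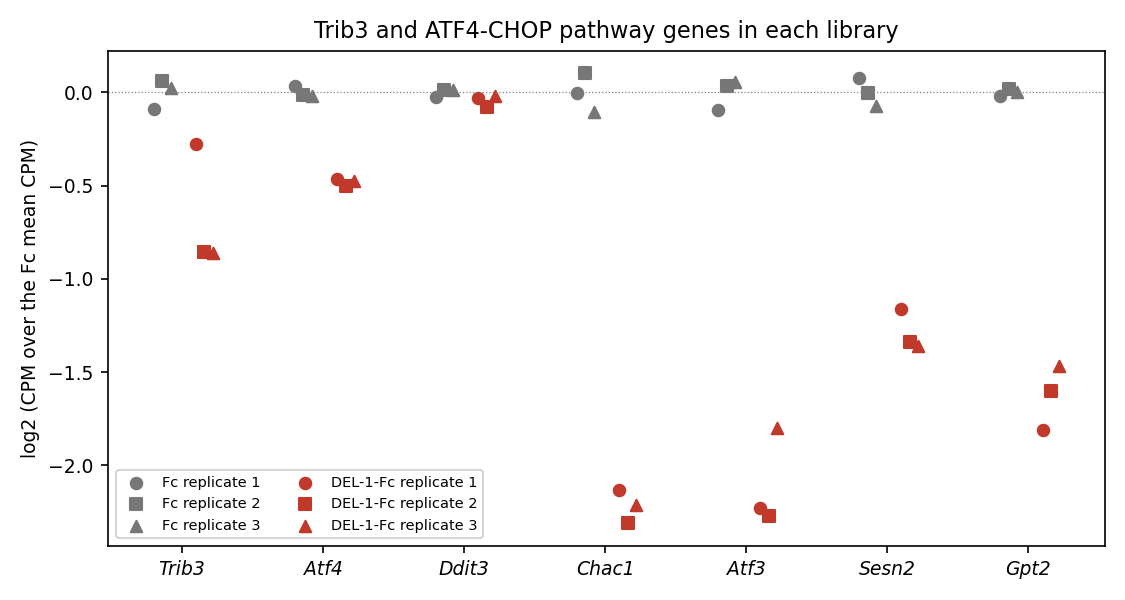
Log2 of CPM over the Fc mean CPM (y axis) for Trib3 and 6 genes of the ATF4 and CHOP pathway in each Fc (grey) and DEL-1-Fc (red) library, with symbols for the replicate number. Trib3 has DEL-1-Fc replicate 1 at -0.28 and replicates 2 and 3 at -0.86, the 3 DEL-1-Fc points of Atf4 lie together, and Ddit3 stays near 0 in all 6 libraries.

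For Trib2, the list held the Notch pathway and transcription factors tied to Trib2 in leukaemia. Of its 21 genes, 13 were tested, and 1 rose, 3 fell and 9 did not pass, with a median log2 fold change of 0.00. The shares called were 7.69% higher and 23.1% lower, against 6.4% and 6.22% over all genes. The receptors Notch1 (log2 fold change -0.66, SE 0.0831, adjusted p = 0.00123) and Notch2 (-0.70, SE 0.0861, adjusted p = 0.0011) fell, as did Rbpj, their DNA-binding partner (-0.55, SE 0.091, adjusted p = 0.00506). Nrarp, a Notch-induced feedback inhibitor, rose from a low level, at 2.343, 2.138 and 2.149 CPM under Fc against 3.9, 5.219 and 3.795 CPM under DEL-1-Fc (log2 fold change 0.96, SE 0.157, adjusted p = 0.00455). It was not tested under the filter of 5 CPM, and its gene overlaps a predicted antisense gene. Trib2, which was chosen on this contrast, and Nrarp were higher in DEL-1-Fc while Notch1 and Notch2 were lower. In the same list Hes1 (log2 fold change -0.35, edgeR adjusted p = 0.584) and Dtx1 (0.15, adjusted p = 0.599) did not pass. Nor did Notch3 (0.97, edgeR adjusted p = 0.223). Hes1 (means of 0.25 CPM in Fc and 0.21 CPM in DEL-1-Fc) and Notch3 (0.16 and 0.34 CPM) were at a low level, so little can be read from them. Hes1, Dtx1 and Notch3 were named after their values were seen. A link of Trib2 to Notch was not tested. The number that rose was 3 without DEL-1-Fc replicate 1 (Nrarp, Tcf7 and Lef1) and 2 without DEL-1-Fc replicate 3 (Nrarp and Tcf7), where Tcf7 and Lef1 were named after their values were seen.

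Of 22 tested FOXO factors and targets, 8 rose, 2 fell and 12 did not pass, with a median log2 fold change of 0.23. The shares called were 36.4% higher and 9.09% lower, against 6.4% and 6.22% over all genes. The list was chosen with earlier results of these data known, so these shares are a description. The log2 fold changes of the list ran from -0.52 to 1.56. The highest was that of Klf2 (SE 0.209, edgeR adjusted p = 0.00519), which was named after its values were seen. Among those with the smallest p were Sesn1, a stress-induced sestrin (log2 fold change 0.65, SE 0.0659), Pik3ip1, an inhibitor of PI3K (0.79, SE 0.0982), Txnip, an inhibitor of glucose uptake (0.45, SE 0.075), and Bcl6, a transcriptional repressor (0.89, SE 0.131), which rose. Ccr7, a lymph node homing receptor (-0.48, SE 0.0812), and Fasl, the death ligand (-0.47, SE 0.0709), fell. The number that rose was 5 without Fc replicate 1 or 3, and the number that fell was 4 without DEL-1-Fc replicate 2.

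Other pseudokinases served as a comparison by protein class. Of 24 tested, 1 rose, 2 fell and 21 did not pass, with a median log2 fold change of 0.01, and their log2 fold changes ran from -0.82 to 0.97. The highest was that of Ksr2 (SE 0.587), which did not pass and was named after its values were seen. It was at a low level, with means of 0.16 CPM in Fc and 0.32 CPM in DEL-1-Fc. The shares called, 4.17% higher and 8.33% lower, were close to the 6.4% and 6.22% over all genes. Vrk3, a pseudokinase of the vaccinia-related kinase family, rose (log2 fold change 0.53, SE 0.0896), and Mlkl, the executor of necroptosis (-0.82, SE 0.0846), and Scyl2, a clathrin coat-associated protein (-0.25, SE 0.0604), fell. Stk40, the closest relative of the Tribbles proteins and likewise a COP1 adaptor, measured 89.84, 86.61 and 80.06 CPM under Fc against 79.04, 68.59 and 62.74 CPM under DEL-1-Fc and did not pass (log2 fold change -0.29, SE 0.0903, adjusted p = 0.073). Stk40 passed on omission of DEL-1-Fc replicate 1 (adjusted p = 0.00194), with DESeq2 (0.0297), with no low-count filter (0.0286) and with the replicate number as a block (0.0374). Scyl2 did not pass when Fc replicate 1, 2 or 3 was omitted (adjusted p = 0.123, 0.124 and 0.0988) or with library sizes alone (0.0645). Those that rose numbered 3 without DEL-1-Fc replicate 1 (Vrk3, Stradb and Nrbp1) and 2 without DEL-1-Fc replicate 3 (Vrk3 and Prag1), the added genes being named after their values were seen. Those that fell numbered 5 without DEL-1-Fc replicate 1 and 1 on omission of any Fc replicate.

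**Figure D4:**
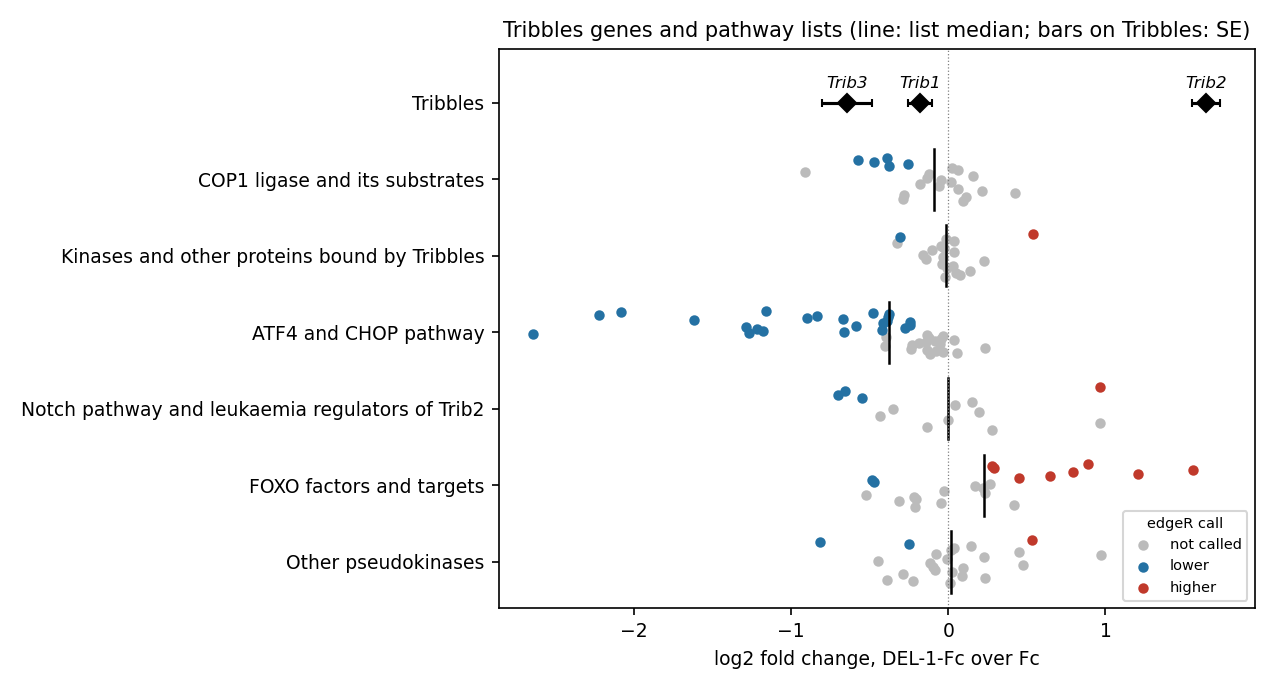
Log2 fold change, DEL-1-Fc over Fc (x axis), of Trib1, Trib2 and Trib3 (black diamonds with SE) and of each tested gene of 6 lists, coloured by the edgeR call at an adjusted p of 0.05, with a black line at each list's median. The ATF4 and CHOP list has its median at -0.38 with 23 genes called lower, and Trib2 at 1.64 lies to the right of every gene of these lists.

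The genes whose pattern over the 6 libraries was most like each member were ranked by Pearson's r of log2 CPM among 9048 protein-coding genes with a mean of at least 5 CPM. Since r includes the difference between the groups, on which the members were chosen, both r and the fold changes of these genes are a description with no test. The r of the deviations from the group means, which leaves that difference out, is given beside it. It comes from the same 6 libraries by which these genes were ranked highest, so that choice raises it too. It is likewise a description. For Trib2 the 5 highest were Tspan32, a tetraspanin of blood cells (r = 0.9992), Rcn1, a calcium-binding protein of the endoplasmic reticulum (0.998), Tmem71 (0.9974), Angptl2, a secreted angiopoietin-like protein (0.9973), and Lzts2 (0.9972). Their log2 fold changes were 0.76, 0.64, 1.49, 0.88 and 0.52, and the r of their deviations 0.952, 0.878, 0.794, 0.878 and 0.783. For Trib1 they were Espl1, the separase of chromosome segregation (r = 0.9973), Fastk (0.9955), Nab2, a corepressor of EGR factors (0.993), Ccnk, cyclin K (0.9889), and Zfand3 (0.9889). Their log2 fold changes were -0.07, -0.08, -0.17, -0.34 and -0.17, and the r of their deviations 0.994, 0.997, 0.986, 0.979 and 0.987. For Trib3 they were the class I MHC gene H2-D1 (r = 0.9983), Cd74, the class II invariant chain (0.9974), Tstd3 (0.994), Klhl21, a ubiquitin ligase adaptor (0.9934), and Trpv2, a cation channel (0.992). Their log2 fold changes were -0.20, -0.21, -0.40, -0.17 and -0.17, and the r of their deviations 0.995, 0.991, 0.984, 0.975 and 0.972. Within the groups, Trib3 varied mainly through DEL-1-Fc replicate 1 (8.867 CPM, against 5.926 and 5.92 CPM in replicates 2 and 3). The r of deviations for Trib3 therefore rest largely on that 1 library, the shallowest. H2-D1 belongs to a multigene family. Tspan32, Angptl2, Lzts2, Espl1, Nab2, Tstd3 and Klhl21 overlap annotated genes on the opposite strand, Zfand3 and Cd74 on the same strand, and Fastk on both, which makes their counts uncertain. Of the genes named from the lists, this applies to Map2k1, Mlkl, Vrk3, Bcl6, Pik3ip1, Txnip, Rbpj, Jun, Atf3 and Cebpb on the opposite strand, Notch2, Sesn1, Sesn2 and Akt1 on the same strand, and Notch1, Etv6 and Cop1 on both.

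The direction of the 3 members did not depend on the processing choices tried. Over 13 alternatives the log2 fold change ranged from 1.56 to 1.70 for Trib2, from -0.86 to -0.54 for Trib3 and from -0.23 to -0.12 for Trib1. The lowest and highest value of each member came from leaving out a library.

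**Figure D5:**
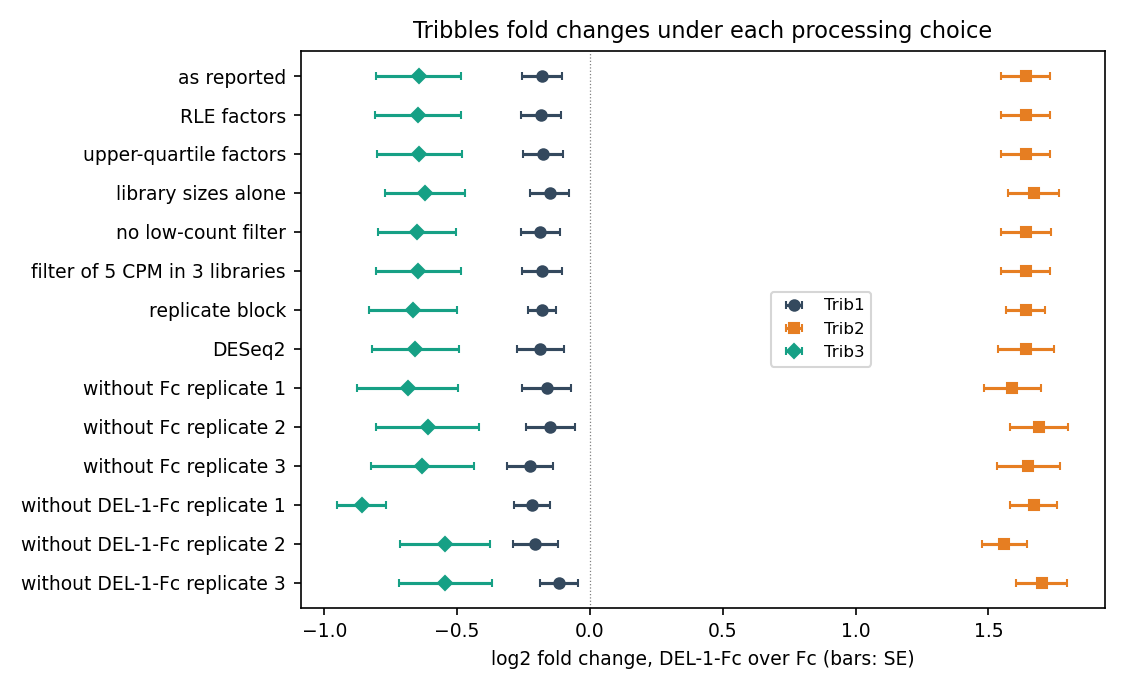
Log2 fold change, DEL-1-Fc over Fc (x axis, bars are the SE), of Trib1, Trib2 and Trib3 as reported and under 13 other processing choices (y axis). Each member keeps its side of 0, and the Trib3 point without DEL-1-Fc replicate 1 lies farthest from 0 of the Trib3 points, at -0.86.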

How the data were processed

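PolyA RNA sequencing libraries of mouse in vitro differentiated Tregs, 3 with DEL-1-Fc and 3 with Fc, were analysed. Each deposited file holds 1 library's raw read counts for Ensembl genes, made by the authors with STAR (no version given) and HTSeq 0.6.0 on GRCm38 (mm10), per the submitters' processing notes. The sources used here give neither annotation release, strandedness nor the handling of multi-mapping reads, so overlapping and near-identical genes are uncertain. Of 39179 identifiers, 37693 matched GENCODE M21 (GRCm38), used for symbols, positions and lengths.

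Groups came from the titles. Counts were tested with edgeR 4.0.16 (R 4.3.3): filterByExpr (minimum count 10, minimum total 15), TMM, the robust quasi-likelihood test and Benjamini-Hochberg adjustment over 14928 genes, with calls at 0.05. The SE is the absolute log2 fold change over the root of the F statistic. A count of 0 allows up to 3 counts (0.0484 to 0.0899 CPM), which covers counting error only. Replicate pairs differed beyond counting noise (chi-square over its degrees of freedom 19.9 or more), so no library repeats another's counts.

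The members and lists were chosen with earlier results of these data known. Genes named were the members, the called genes of each list (all if 6 or fewer, otherwise up to 4 a direction by p), 9 partners and regulators, and the 5 genes most like each member. DEL-1-Fc and Fc counts were simulated for the 14928 genes kept, of which 14751 passed the low-count filter again. Changed genes that did not pass it again are left out of the rates. Among the 14751 genes, 71 were changed by a log2 of 2, 64 by 1 and 58 by 0.5. Of these, 98.6%, 60.9% and 20.7%, respectively, were called in the right direction, and 10.4% of calls were unchanged genes. Far fewer genes were changed there than the 1884 called in the data, so these rates may not carry over to the data. Alternatives were DESeq2 1.42.0, other scaling factors, other filters, a replicate block, omission of each library, and another gene length.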

Additional observations from a re-analysis of the deposited data

How the results depend on the processing

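The log2 fold changes of Trib1, Trib2 and Trib3 kept their sign under all 13 alternatives and moved by less than the spread between replicates. With 3 libraries per group, leaving out 1 library can hardly move them further than that spread. The spread also includes the library left out, so nothing is read from this for the omissions. Leaving out each library in turn, the log2 fold changes ranged from -0.226 to -0.117 for Trib1, from 1.56 to 1.7 for Trib2 and from -0.859 to -0.544 for Trib3. With the longest transcript as the length, the level of Trib1 moved to 28.73 CPM per kb in Fc and 25.38 in DEL-1-Fc.

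The count of all genes called (1884) ran from 901 without Fc replicate 1 to 3003 without DEL-1-Fc replicate 1, of which 885 and 1832 were among the 1884. Those higher ran from 428 to 1485 and those lower from 466 to 1518. It was 2402 with DESeq2. Whether the replicate numbers pair the libraries could not be settled with 3 libraries per group. Correlations of deviations were 0.0163, 0.0885 and 0.0425 for libraries of the same number (1, 2 and 3). For libraries of different numbers they ran from -0.0913 to 0.0382. Each Fc library correlated best with its own number, but DEL-1-Fc replicate 1 correlated best with Fc replicate 3 (0.0382). With the replicate block 1510 genes were called.

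Over the omissions of 1 library, the ATF4 and CHOP list had 17 to 29 genes lower and 0 higher, the COP1 list 2 to 7 lower and 0 to 1 higher, the bound proteins 0 to 1 lower and 0 to 2 higher, the Notch list 3 to 4 lower and 1 to 3 higher, the FOXO list 2 to 4 lower and 5 to 10 higher, and the other pseudokinases 1 to 5 lower and 1 to 3 higher. With DESeq2, 2 bound proteins were lower. The Notch list had 2 higher with library sizes alone, with no low-count filter, with the replicate block and with DESeq2, and 0 with the filter of 5 CPM in 3 libraries, which tests fewer genes. The other pseudokinases had 2 higher with the replicate block, with no filter and with library sizes alone, and 3 with DESeq2. They had 1 lower with library sizes alone and 4 with DESeq2. The cause of these shifts was not tested. Akt1 turned to 0.012 with library sizes alone and to 0.0234 and 0.0295 without DEL-1-Fc replicates 2 and 3 (range over omissions -0.0964 to 0.0295). Cebpb turned to -0.127, -0.0488 and -0.22 without Fc replicate 1, Fc replicate 3 and DEL-1-Fc replicate 1 (range -0.22 to 0.429). Neither passed the test under any setting. Of 45 named genes followed, 17 changed side or sign under an alternative. Cebpa was too low to test at this depth.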
